A study of Mus musculus with 8 samples.

Results

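The genes described here act on collagen after its chains are made: the prolyl 4-hydroxylase subunits P4ha1, P4ha2, P4ha3 and P4hb, the lysyl hydroxylases Plod1, Plod2 and Plod3, the crosslinking oxidases Lox and Loxl2, and the collagen chaperone Serpinh1. They are 10 of the 78298 rows of the deposited exon tables and were chosen by gene symbol, and each symbol had 1 row. Levels were compared between 4 libraries of NIH3T3 cells given Mic-628 for 1 day and 4 given vehicle for the same time. NIH3T3 is an established mouse fibroblast line, and its genotype is given as wild type in both groups. The cells were grown in DMEM with fetal bovine serum, and Mic-628 is a compound named only by its code in a series whose title speaks of an inducer of the clock gene Period1. No dose is given. Nothing in the labels says that replicates were cultured separately, and p-values therefore cover only variation among these libraries, possibly technical in part.

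Fibrillar collagen is modified inside the endoplasmic reticulum before it is secreted. Prolyl 4-hydroxylase, a tetramer of catalytic alpha subunits and the beta subunit protein disulfide isomerase (P4hb), hydroxylates prolines and so stabilises the triple helix. Lysyl hydroxylases (Plod1 to Plod3) hydroxylate lysines, Plod2 mainly those of the telopeptides, and the chaperone HSP47 (Serpinh1) binds the folded helix on its way to the Golgi. Outside the cell, lysyl oxidases convert lysines and hydroxylysines to the aldehydes from which crosslinks form. Fibroblasts are the main makers of this matrix, and P4ha1, P4ha2, Plod2 and Lox are well known as targets of the hypoxia-inducible factor HIF.

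Each library held between 18.1 M and 23.2 M counts over the listed transcripts. Per1, the clock gene in the series title, stood at 20.5 to 22.9 CPM in the vehicle libraries and at 118 to 129.8 CPM in the Mic-628 libraries, so the libraries separate as labelled (CPM, counts scaled to library size with edgeR's TMM factors). Of 10 fibroblast markers 9 passed the filter on low counts, and Fap had no count. Their summed level was 22177 to 23819 CPM with vehicle and 19676 to 20163 CPM with Mic-628, and 4 of the 9 were lower (Fn1, Vim, Col1a2 and Dcn) and 0 higher. Marker lists of epithelium, endothelium, adipocytes and skeletal muscle each summed to at most 1.55 CPM in any library, with Adipoq, Myod1 and Myog at 0. The 5 cartilage and bone markers summed to 78.1 to 90.2 CPM with vehicle and 82.8 to 90.04 CPM with Mic-628, with Ibsp at 0, and of the 2 tested Sox9 was higher (log2 fold change 0.17, edgeR adjusted p = 0.0358) and Runx2 was not called. The 5 blood and macrophage markers summed to 14.6 to 16.3 CPM with vehicle and 16.3 to 17.8 CPM with Mic-628, almost all of it Cd68 and Csf1r, with Adgre1 at 0. The part of these shifts in the results was not tested. In bulk RNA, fewer cells of a type and less RNA per cell cannot be told apart.

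With Mic-628, transcripts of 5 of the 9 tested genes fell by modest amounts, and 0 rose. Ordered by size, P4ha2 fell by 19.9%, Plod2 fell by 18.8%, Lox fell by 11.6%, P4hb fell by 9.17% and Plod1 fell by 8.76%. The remaining 4, P4ha1, P4ha3, Plod3 and Serpinh1, did not pass the test, and Loxl2 was too weakly expressed to be tested. A gene is called changed at an adjusted p under 0.05 by edgeR's quasi-likelihood test over 17128 rows with Benjamini-Hochberg adjustment. At that threshold 4.37% of all tested rows were called, 2.25% lower and 2.13% higher. The median log2 fold change was -0.14 over the 9 tested genes and -0.0040 over all tested rows. The genes were chosen with earlier results of these data known, so their count is a description.

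**Figure D1:**
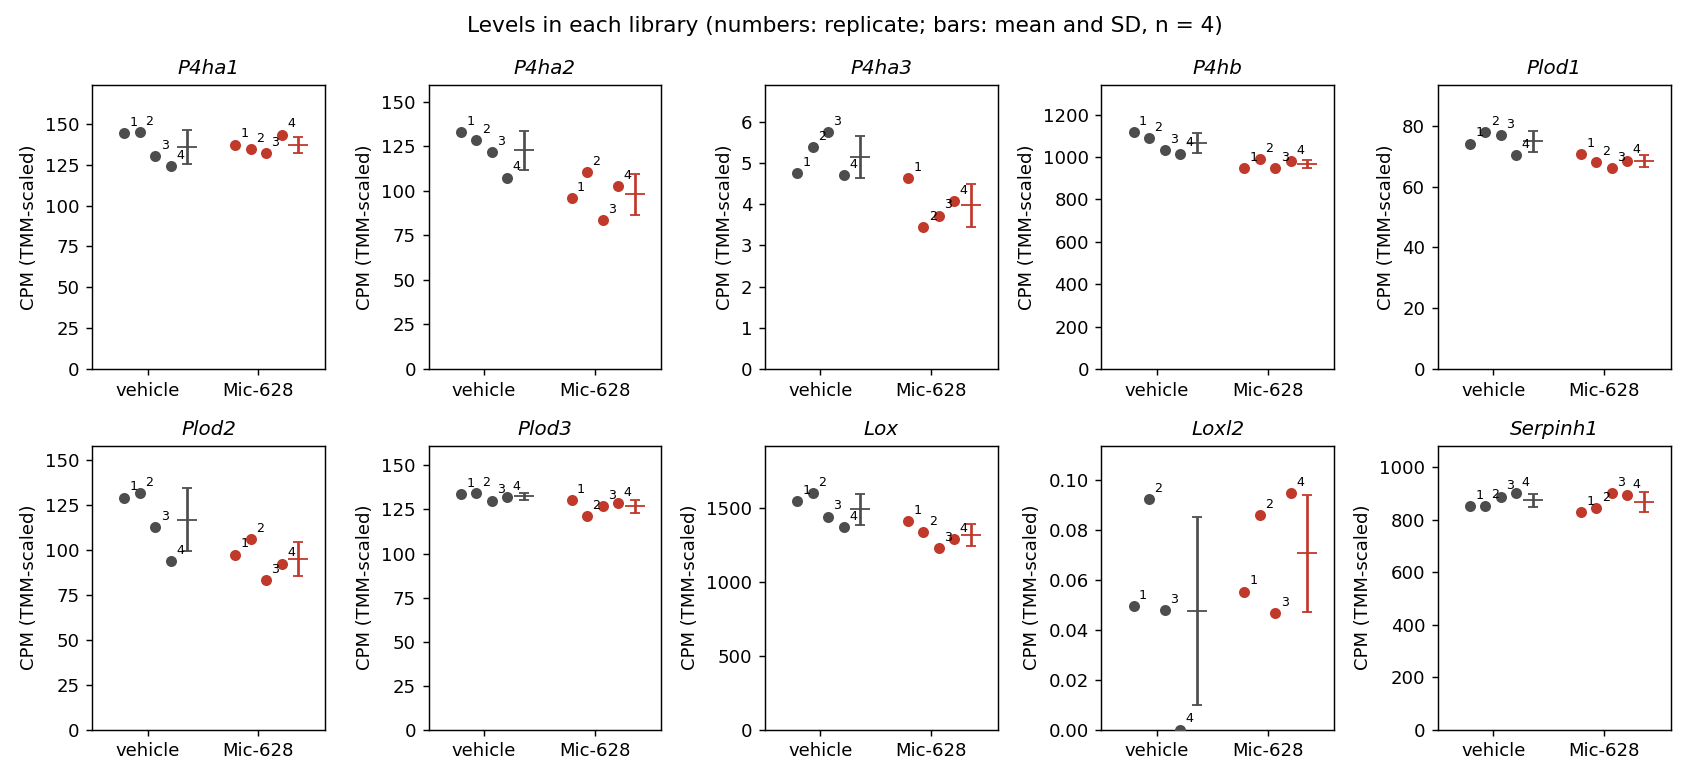
Level of each gene in each library, in TMM-scaled CPM on a linear axis from 0; grey points are vehicle and red points Mic-628, numbers give the replicate, and bars show the mean and SD of 4 libraries. P4hb lay between 949 and 989 CPM in the Mic-628 libraries, below the 1016 to 1117 CPM of the vehicle libraries, while the groups overlapped for Serpinh1 and P4ha1.

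Per length of transcript, the 10 genes spanned several orders of magnitude. FPKM, which divides reads by exon length and library size, allows levels to be compared between genes. With vehicle, Serpinh1 had the highest level, 367 ± 9.83 FPKM (SD, n = 4), followed by P4hb with 347 ± 15.9 and Lox with 309 ± 22.1. These neighbours did not separate, since the ranges over libraries of Serpinh1 and P4hb overlapped, as did those of P4hb and Lox. P4ha2 came next with 51.6 ± 4.76 FPKM, then Plod3 with 37.8 ± 0.574, P4ha1 with 31.4 ± 2.42, Plod2 with 29.9 ± 4.51 and Plod1 with 21.6 ± 1.01 (SD, n = 4 each). P4ha1 and Plod2 overlapped here. P4ha3 stood at 2.04 ± 0.204 FPKM and Loxl2 at 0.0082 ± 0.0066 FPKM (SD, n = 4 each). The order of the means was the same with Mic-628, from Serpinh1 at 364 ± 15.6 FPKM and P4hb at 315 ± 7.16 FPKM to P4ha3 at 1.57 ± 0.207 FPKM and Loxl2 at 0.0125 ± 0.0042 FPKM (SD, n = 4 each). In the Mic-628 libraries, P4ha2 (41.3 ± 4.86 FPKM, SD, n = 4) and Plod3 (36.2 ± 0.994 FPKM, SD, n = 4) overlapped, which they did not with vehicle. By mean FPKM over all 8 libraries, Serpinh1, P4hb and Lox ranked 184, 201 and 223 among all 78298 rows.

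Of the alpha subunits, only P4ha2 was called lower, while P4ha3 had a larger estimated fall (log2 fold change -0.39) that missed the threshold. P4ha2 is a catalytic subunit of prolyl 4-hydroxylase (transcript ENSMUST00000019050.12, chromosome 11, 53991789 to 54022478, plus strand). Coordinates of transcripts are those of the deposited table on mm39. P4ha2 stood at 133, 128, 122 and 107 CPM in vehicle replicates 1 to 4, against 95.7, 111, 83.5 and 103 CPM under Mic-628 in the same order. All Mic-628 libraries but replicate 2 lay below every vehicle library, so the groups overlapped only through that library. This gave a log2 fold change of -0.32 with a 95% interval of -0.45 to -0.19 (SE 0.0623; edgeR adjusted p = 0.00237), and P4ha2 was lower in 4 of 4 libraries of the same batch number. The call held in each of the 12 fits that left out a library or a batch, but not in DESeq2 without or with the batch block (adjusted p = 0.0545 and 0.109).

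P4ha1, the alpha subunit considered the main form in most cells (ENSMUST00000009789.15, chromosome 10, 59159118 to 59209126, plus strand), gave no such difference. Its levels were 144, 145, 131 and 124 CPM in vehicle replicates 1 to 4, and the Mic-628 replicates followed with 137, 135, 132 and 144 CPM. The Mic-628 values fell within the range of the vehicle values. Its log2 fold change of 0.01 had a 95% interval that spanned 0 (-0.08 to 0.10; edgeR adjusted p = 0.943), and it took a negative sign in 4 of the 23 alternative settings. The interval corresponds to folds of 0.947 to 1.07, which leaves out a fall of the size seen for P4ha2.

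P4ha3, the least abundant alpha subunit (ENSMUST00000057023.12, chromosome 7, 99934727 to 99968906, plus strand), had 4.75, 5.39, 5.75 and 4.70 CPM in vehicle replicates 1 to 4, compared with 4.64, 3.44, 3.72 and 4.07 CPM in the Mic-628 replicates. The groups did not overlap, by a margin of 4.64 against 4.70 CPM. Among the 9 tested genes 2 were separated with Mic-628 lower, P4ha3 and P4hb, and 0 with Mic-628 higher, against 5.07% and 5.63% of all tested rows and 10.7% in either direction. Only 79.5 to 120.5 counts per library stood behind these values, and the coefficient of variation with vehicle, 9.89%, was close to the 9.60% that counting alone gives. At -0.39 on the log2 scale (SE 0.115), P4ha3 missed the threshold (edgeR adjusted p = 0.0556). It was called without the low-count filter (adjusted p = 0.0440), without vehicle replicate 1 or 4 (0.0439 and 0.0434), without Mic-628 replicate 1 (0.0334) and without batch 1 (0.0192).

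P4hb, the beta subunit, which also works on its own as a disulfide isomerase (ENSMUST00000026122.11, chromosome 11, 120451124 to 120464079, minus strand), fell with the groups apart. Vehicle replicates 1 to 4 gave 1117, 1089, 1033 and 1016 CPM of P4hb, which compares with 949, 989, 949 and 979 CPM for the Mic-628 replicates. Every Mic-628 library was below every vehicle library. The difference on the log2 scale was -0.14 with an SE of 0.0335 (edgeR adjusted p = 0.0154). Without vehicle replicate 2, Mic-628 replicate 3, batch 2 or batch 3 it was not called (adjusted p 0.0789, 0.0746, 0.121 and 0.108). Per length, the ratio of P4hb to the summed alpha subunits was 4.09 ± 0.192 under vehicle, compared with 4.24 ± 0.248 under Mic-628 (SD, n = 4 each), and the groups overlapped.

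Promoter sequences are shown for the alpha subunits P4ha1 and P4ha2, for P4hb, which fell, and for Serpinh1, which did not pass the test. They are the 250 bases before the RefSeq gene start on GRCm38.p6, an earlier build than that of the counts, 5′ to 3′ in the direction of the gene, and their coordinates are not comparable with those above. Capitals mark matches to the core of the hypoxia response element (ACGTG or GCGTG, either strand) or to a pair of heat shock units (GAANNTTC or TTCNNGAA).
P4ha1 (chr10:59323046-59323295, plus strand): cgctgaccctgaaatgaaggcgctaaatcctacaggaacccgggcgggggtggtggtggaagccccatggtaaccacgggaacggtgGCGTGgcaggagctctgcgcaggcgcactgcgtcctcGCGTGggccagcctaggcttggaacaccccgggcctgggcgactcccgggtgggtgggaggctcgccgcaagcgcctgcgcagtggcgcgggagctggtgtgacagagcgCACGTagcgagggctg
P4ha2 (chr11:54100674-54100923, plus strand): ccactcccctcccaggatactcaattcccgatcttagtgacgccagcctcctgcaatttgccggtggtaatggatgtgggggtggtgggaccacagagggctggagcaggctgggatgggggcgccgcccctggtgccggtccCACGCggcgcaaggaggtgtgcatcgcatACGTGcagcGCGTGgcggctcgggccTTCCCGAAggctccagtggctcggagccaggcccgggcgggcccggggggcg
P4hb (chr11:120573254-120573503, minus strand): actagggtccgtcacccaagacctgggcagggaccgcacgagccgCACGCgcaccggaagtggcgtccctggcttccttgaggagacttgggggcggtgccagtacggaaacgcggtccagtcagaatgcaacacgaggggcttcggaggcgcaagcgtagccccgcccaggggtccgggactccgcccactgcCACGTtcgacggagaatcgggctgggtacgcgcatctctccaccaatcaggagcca
Serpinh1 (chr7:99353240-99353489, minus strand): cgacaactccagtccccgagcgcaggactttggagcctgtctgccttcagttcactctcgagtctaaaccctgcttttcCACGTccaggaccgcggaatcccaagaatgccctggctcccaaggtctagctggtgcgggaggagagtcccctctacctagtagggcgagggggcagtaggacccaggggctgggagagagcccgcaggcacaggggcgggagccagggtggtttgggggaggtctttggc
The P4ha1 window held GCGTG at positions -163 and -126 and the reverse of ACGTG at -16, counted from the gene start to the first base of the match. The P4ha2 window held GCGTG at -69, its reverse at -107 and ACGTG at -78, and also a TTCNNGAA pair at -52. The core was thus present in the windows of P4ha2, which fell, and of P4ha1, which did not pass the test. The P4hb window had the reverse of ACGTG at -56 and of GCGTG at -205, and the Serpinh1 window had only the reverse of ACGTG at -171. Of the windows searched but not printed, that of P4ha3 held neither form of the core. The Plod3 window held ACGTG at -54, GCGTG at -104 and -90 and its reverse at -152, and the Plod1 window held GCGTG at -20. The relation of these matches to the changes was not tested. Of the 32851 promoter windows of this length in the table, 16.6% held ACGTG, 28.2% GCGTG, 6.69% GAANNTTC and 7.17% TTCNNGAA on either strand. The median GC content of all promoters was 52.4%. Every window searched for these genes was richer in GC, the lowest being that of Plod3 with 55.6%. The shares were not matched for GC content, so they cannot show whether the core is enriched in these windows. The E-box CACGTG, at which the clock activators bind, was in 6.02% of windows and in none of the 7 windows searched for these genes (P4ha1, P4ha2, P4ha3, P4hb, Plod1, Plod3 and Serpinh1). No window of Plod2, Lox or Loxl2 was searched. A match of letters is a description and does not show binding.

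Among the lysyl hydroxylases, Plod2 and Plod1 fell. Plod2 (ENSMUST00000160359.2, chromosome 9, 92424317 to 92490473, plus strand) reached 129, 132, 113 and 94.0 CPM in vehicle replicates 1 to 4, whereas the Mic-628 replicates had 97.6, 106, 83.5 and 92.5 CPM. Vehicle replicate 4 lay inside the Mic-628 range, and the other vehicle libraries lay above it. The vehicle spread of Plod2, a coefficient of variation of 15.0% against 2.02% from counting, was the widest among the 9 tested genes. The log2 scale difference was -0.30 (SE 0.0736; edgeR adjusted p = 0.0168), with 4 of 4 batch pairs lower, and it was -0.39 without vehicle replicate 4. Its call was lost when vehicle replicate 2, Mic-628 replicate 3, batch 2 or batch 3 was left out (adjusted p 0.103, 0.110, 0.0512 and 0.151) or in DESeq2 (0.225), but was with the block in DESeq2 (0.00098). An antisense row, B430319G15Rik, overlaps the start of Plod2 with a mean of 137 counts, and whether the counting used strand is not given in the sources used here, although the library kit named in the labels is a stranded one.

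Plod1 (ENSMUST00000019199.14, chromosome 4, 147994210 to 148021224, minus strand) had 74.2, 77.9, 77.1 and 70.4 CPM in vehicle replicates 1 to 4, against 70.8, 68.2, 66.1 and 68.6 CPM in the Mic-628 replicates. The groups overlapped by a single pair of libraries, vehicle replicate 4 and Mic-628 replicate 1. On the log2 scale its difference of -0.13 (SE 0.0383) was just past the threshold (edgeR adjusted p = 0.0482). It was not called with the batch number as a block (edgeR adjusted p = 0.0875), and it was called in 7 of 23 alternative settings. Leaving out vehicle replicate 2 or 3, Mic-628 replicate 2, 3 or 4, or batch 2 or 3 gave adjusted p of 0.200, 0.151, 0.102, 0.175, 0.0989, 0.321 and 0.348.

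Plod3, a multifunctional enzyme that also glycosylates collagen (ENSMUST00000004968.11, chromosome 5, 137015873 to 137025502, plus strand), varied little, at 134, 134, 130.1 and 132 CPM in vehicle replicates 1 to 4, next to 130.3, 121, 127 and 128 CPM in the Mic-628 replicates. It was lower in 4 of 4 batch pairs, and only the highest Mic-628 library reached the vehicle range. The test gave -0.06 on the log2 scale (SE 0.0326; edgeR adjusted p = 0.317), and the 95% interval ran from -0.13 to 0.0025.

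Lox, the founding lysyl oxidase (ENSMUST00000171470.8, chromosome 18, 52649141 to 52662939, minus strand), fell. Its levels were 1545, 1598, 1439 and 1367 CPM in vehicle replicates 1 to 4, but 1409.9, 1335, 1228 and 1289 CPM in the Mic-628 replicates. Vehicle replicate 4 and Mic-628 replicate 1 overlapped, and the other libraries kept the groups apart. Its log2 change measured -0.18 (SE 0.0435; edgeR adjusted p = 0.0171), with 4 of 4 batch pairs lower. Without vehicle replicate 2, Mic-628 replicate 3, batch 2 or batch 3 the adjusted p was 0.112, 0.110, 0.187 and 0.146, so Lox was not called. The opposite-strand row Gm41724 overlaps Lox with a mean of 356 counts, against 25524 to 34666 counts per library for Lox.

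Loxl2, another crosslinking oxidase, was barely detected, and values for Loxl1, Loxl3 and Loxl4 come from the wider list of collagen biosynthesis genes. Loxl2 (ENSMUST00000022660.14, chromosome 14, 69846517 to 69933283, plus strand) had 1, 2, 1 and 0 counts in vehicle replicates 1 to 4 and 1, 2, 1 and 2 counts in Mic-628 replicates 1 to 4. It was therefore at or near background in every library, and the 0 of vehicle replicate 4 allows a level of up to 0.141 CPM (3 counts, counting error only). Loxl4 rose, with 27.1 ± 1.14 CPM under vehicle, 37.9 ± 1.15 CPM under Mic-628 (SD, n = 4 each) and no overlap between groups. Its log2 fold change was 0.48 (edgeR adjusted p = 9.34e-08). Loxl1 had 181 ± 4.39 and 168 ± 2.59 CPM (SD, n = 4 each) and just missed the threshold (log2 fold change -0.11, edgeR adjusted p = 0.0505), and Loxl3 had a log2 fold change of -0.03. Per length, Lox made up 82.3% of the transcripts of the 5 family genes with vehicle and 80.7% with Mic-628, while Loxl4 made up 1.81% and 2.80%. The summed family level was 376 ± 21.5 FPKM with vehicle and 339 ± 14.3 FPKM with Mic-628 (SD, n = 4 each).

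Serpinh1, which encodes HSP47 (ENSMUST00000094154.6, chromosome 7, 98994596 to 99002446, minus strand), did not pass the test. It had 853, 854, 888 and 902 CPM in vehicle replicates 1 to 4, and 828, 844, 902 and 896 CPM were measured in the Mic-628 replicates. The ranges of the groups nearly coincided. The estimate was -0.01 on the log2 scale, with a 95% interval of -0.08 to 0.06 (edgeR adjusted p = 0.914), or folds of 0.945 to 1.04, and its sign turned in 3 of 23 alternative settings.

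Serpinh1 is also a heat shock gene, so its values were set beside the cytosolic heat shock list. Of the 15 listed genes 5 rose and 0 fell (median log2 fold change 0.15), against 2.13% higher and 2.25% lower over all tested rows. Over the alternative settings the count of higher genes ran from 0 to 8. The members with the smallest p were the small heat shock protein gene Cryab (0.43), the inducible Hsp70 genes Hspa1b (1.46) and Hspa1a (1.53), and Hsp90aa1 (0.15). The Hsp70 pair is near-identical in sequence, so its reads may be split. In Mic-628 replicates 1 to 4 Hspa1b had 21.4, 19.3, 31.6 and 54.2 CPM and Hspa1a 5.14, 5.41, 8.28 and 15.3 CPM. Both were thus highest in replicate 4. Leaving out batch 3 gave Hsp90aa1 an edgeR adjusted p of 0.0877, and leaving out batch 4 gave 0.119, so its call was lost. Of 16 genes for folding enzymes and chaperones of the endoplasmic reticulum, where P4hb and Serpinh1 act, 0 were called by edgeR (median log2 fold change 0.02), 5 had an unadjusted p under 0.05, and DESeq2 also called 0. The count was 1, higher, without Mic-628 replicate 4 or batch 4. The smallest p belonged to the oxidase gene Ero1b (log2 fold change 0.21, adjusted p = 0.125), then to the cochaperone genes Dnajc3 (0.09, 0.136) and Dnajb11 (0.08, 0.167), and the groups of both cochaperone genes did not overlap. Groups were apart in 4 of the 16, all with Mic-628 higher, against 5.63% of all tested rows. Hspa5, its main Hsp70, went from 5938 to 6245 CPM (log2 fold change 0.07), and the disulfide isomerase gene Pdia3 (0.05) was not called either, while P4hb, also a disulfide isomerase, fell. The difference between P4hb and these genes was not tested.

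**Figure D2:**
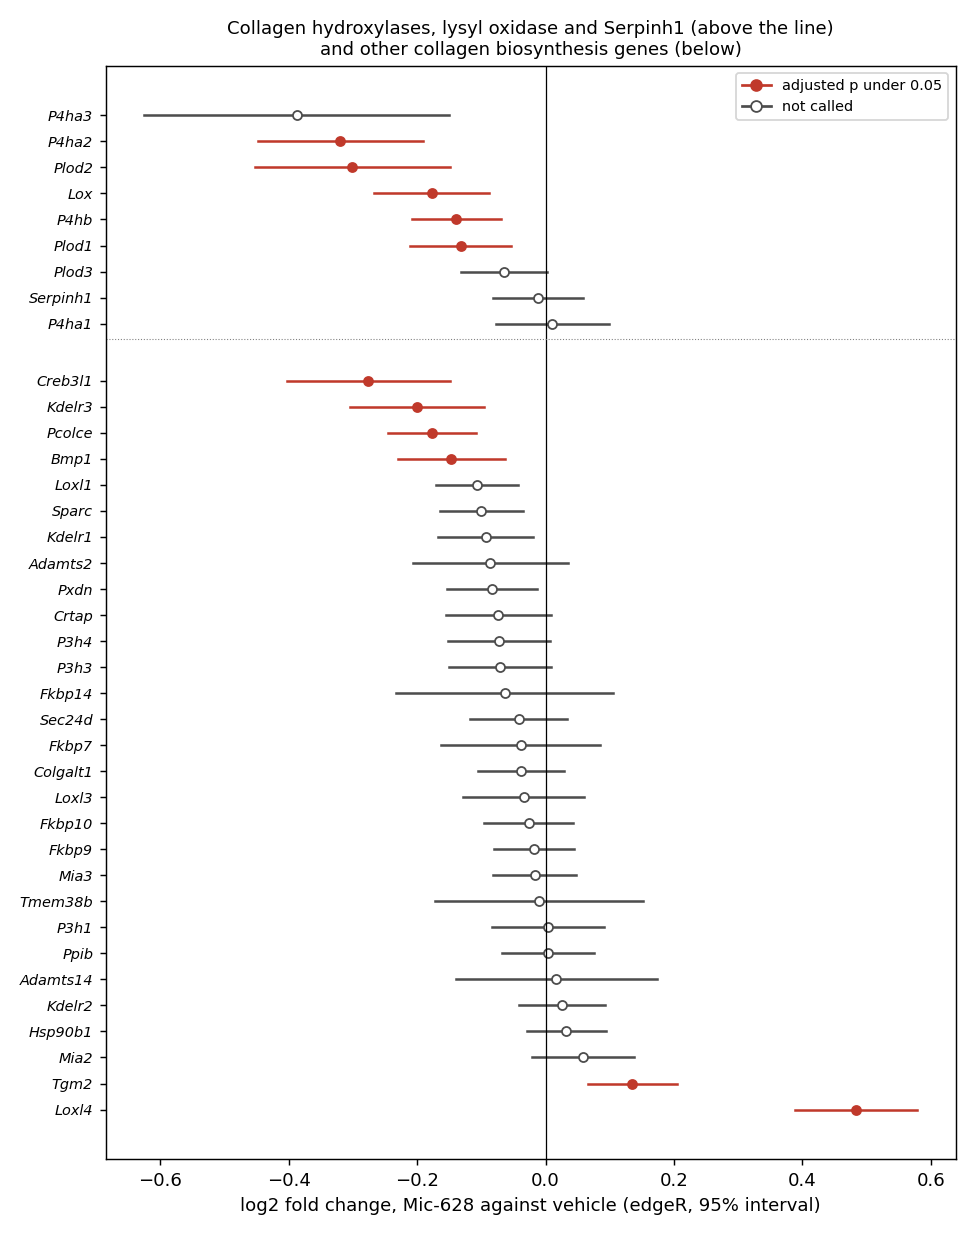
Log2 fold change of Mic-628 against vehicle with its 95% interval from edgeR, for the 9 tested collagen hydroxylase, oxidase and chaperone genes above the dotted line and for the 29 tested other collagen biosynthesis genes below it; filled red points passed an adjusted p under 0.05. Above the line 5 points are red and all lie left of 0, and below it 4 red points lie to the left and 2, Tgm2 and Loxl4, to the right.

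Ratios of genes in the same family were compared to see whether members changed by different amounts. P4ha1 relative to P4ha2 had log2 FPKM ratios of -0.72 ± 0.051 under vehicle, against -0.38 ± 0.16 under Mic-628 (SD, n = 4 each), a difference of 0.34 with no overlap between groups. A two-sided exact permutation test gave p = 0.0286, which is the minimum for 4 libraries in each group, and 0.10 after Benjamini-Hochberg adjustment over the 7 ratios computed. P4ha1 relative to P4hb also separated (difference 0.15, exact permutation p = 0.0286, adjusted 0.10). Neither passed after adjustment. With 7 ratios, the adjusted permutation p falls under 0.05 only if most of them reach the minimum p. These separated ratios alone could not pass, so the adjusted values do not decide whether they differ. For P4ha1 relative to P4ha3 the difference was 0.40 (exact permutation p = 0.0571, adjusted 0.133), and for P4ha2 relative to P4ha3 it was 0.06 (0.743). Among the lysyl hydroxylases, the differences were 0.16 for Plod1 relative to Plod2, -0.07 for Plod1 relative to Plod3 and -0.23 for Plod2 relative to Plod3 (exact permutation p 0.229, 0.20 and 0.20, each adjusted to 0.267), and the groups overlapped in all of these. Of the 8 ratios planned, Lox relative to Loxl2 was not computed, because Loxl2 had a library with no count.

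**Figure D3:**
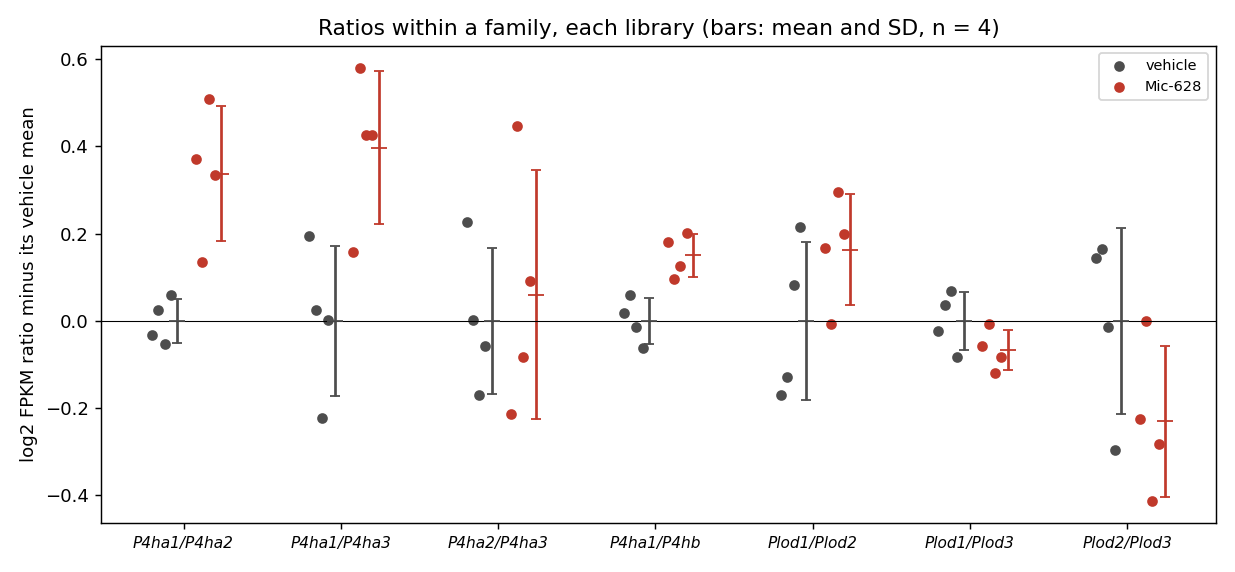
Log2 ratio of FPKM of gene pairs within a family in each library, minus the mean of the vehicle libraries for that pair; grey is vehicle, red is Mic-628, and bars show the mean and SD of 4 libraries. The groups are apart for P4ha1/P4ha2 and P4ha1/P4hb, with mean differences of 0.34 and 0.15, and overlap for the other 5 ratios.

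As shares of the summed alpha subunit level, P4ha2 made up 60.7% ± 0.815 under vehicle, against 55.3% ± 2.72 under Mic-628, and P4ha1 36.9% ± 0.828 and 42.5% ± 2.48 (SD, n = 4 each). P4ha3 made up 2.41% ± 0.269 and 2.12% ± 0.329 (SD, n = 4 each). The sum itself was 85.0 ± 7.11 FPKM with vehicle and 74.4 ± 5.38 FPKM with Mic-628 (SD, n = 4 each). Plod1, Plod2 and Plod3 made up 24.2%, 33.3% and 42.4% of the lysyl hydroxylase level with vehicle and 24.6%, 30.2% and 45.2% with Mic-628. Plod2 thus had the lower share with Mic-628, within the spread between libraries (SD 3.03 and 2.30 percentage points, n = 4 each).

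The genes shared the libraries in which they were low. Vehicle replicate 4 was the lowest vehicle library for 7 of the 9 tested genes, and Mic-628 replicate 3 was the lowest Mic-628 library for 6 of them. For Serpinh1, vehicle replicate 4 and Mic-628 replicate 3 were instead the highest of their groups. The difference within batch 4 was small for the genes that fell: -0.07 for P4ha2, -0.02 for Plod2, -0.08 for Lox, -0.05 for P4hb and -0.04 for Plod1, on the log2 CPM scale. In batch 3 the same differences were -0.54, -0.43, -0.23, -0.12 and -0.22. All 5 genes were thus lower within each of the 4 batches, but by unequal amounts. For P4hb this had to be so, since its groups did not overlap. For P4ha2, Plod1 and Lox nearly any pairing would give it, since a single pair of libraries with different numbers overlapped. For Plod2 only vehicle replicate 4 lay inside the Mic-628 range. Over all genes compared, same-numbered libraries were no more alike than others. The pairs are therefore a description, not 4 separate experiments. The median difference over the 9 genes was -0.07, -0.19, -0.22 and -0.04 in batches 1 to 4.

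**Figure D4:**
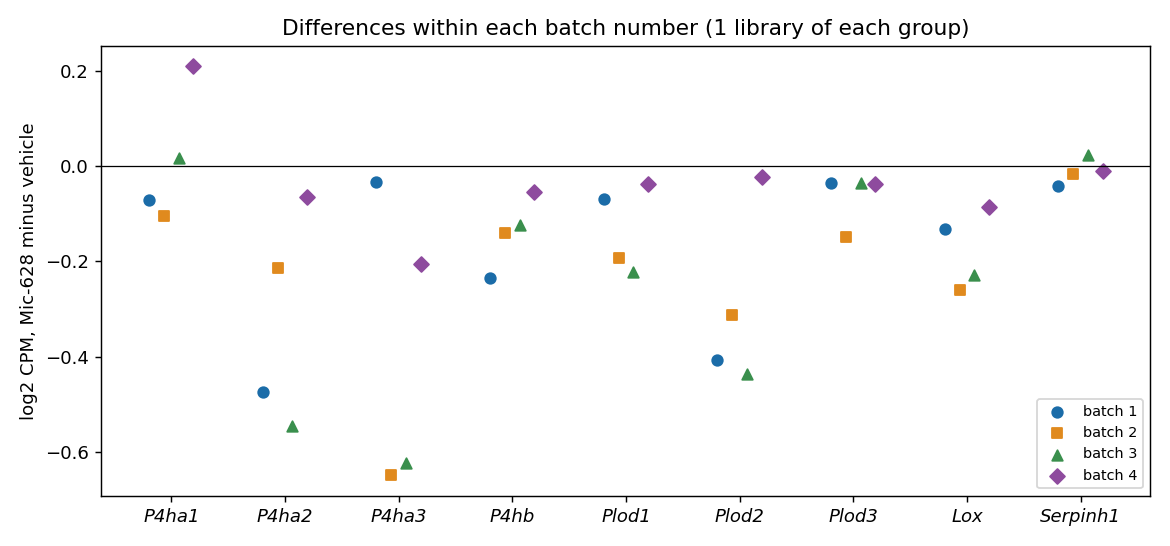
Difference in log2 CPM between the Mic-628 and the vehicle library of the same batch number, for the 9 tested genes; each marker shape is 1 of the 4 batches. All points of P4ha2, P4ha3, P4hb, Plod1, Plod2, Plod3 and Lox lie below 0, those of batch 4 near it for P4ha2 (-0.07) and Plod2 (-0.02), and those of P4ha1 and Serpinh1 lie on either side.

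Because P4ha1, which was not called, and P4ha2, Plod2 and Lox, which fell, are known HIF targets, other HIF target genes were examined. The list left out the enzymes of glycolysis but held Slc2a1, Pfkfb4 and Pdk1, which act on glucose uptake or use. Of the 16 listed genes, 3 fell and 0 rose, with a median log2 fold change of -0.12, against 2.25% lower over all tested rows. Pdk1, which restrains pyruvate entry to mitochondria, fell (-0.37), as did the HIF prolyl hydroxylase gene Egln1 (-0.40) and the weakly expressed carbonic anhydrase gene Car9 (-0.77). Egln1 was not called in DESeq2 without or with the batch block (adjusted p = 0.107 and 0.320), nor Car9 in edgeR without batch 1 or batch 3 (0.0546 and 0.0594). Egln1 had 125, 125, 103 and 87.9 CPM in vehicle replicates 1 to 4, then 83.7, 90.8, 69.4 and 90.4 CPM in the Mic-628 replicates. Vehicle replicate 4 and Mic-628 replicate 3 were thus the lowest of their groups for Egln1, as for P4ha2 and Plod2. The mitophagy gene Bnip3 was also lowest in these libraries (126 and 111 CPM), and was not called (-0.26, edgeR adjusted p = 0.0776). Over the alternative settings the count of lower genes ran from 0 to 10. It was 2 in DESeq2 and 0 by limma-trend, and 10 without vehicle replicate 4 or without batch 4. For Egln1 and Bnip3, leaving out this lowest vehicle library raises the vehicle mean by construction. What these shared library differences contribute to the falls of P4ha2, Plod2 and Lox was not tested.

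Of 35 other collagen biosynthesis genes, 29 were tested, 4 fell, 2 rose and 23 were not called, with a median log2 fold change of -0.04. Over all tested rows 2.25% were called lower and 2.13% higher. Among the genes of procollagen processing, 2 of the 4 tested fell, Pcolce and Bmp1, and the N-propeptidase genes Adamts2 (-0.09) and Adamts14 (0.02) were not called. Pcolce, which encodes an enhancer of the C-propeptidase, had 192 ± 4.51 CPM with vehicle, 170.0 ± 6.18 CPM with Mic-628 (SD, n = 4 each) and a log2 fold change of -0.18 (edgeR adjusted p = 0.00154), and Bmp1, the C-propeptidase gene itself, had -0.15. The gene Creb3l1, which encodes a membrane-bound transcription factor that drives collagen genes, fell from 30.6 ± 1.28 to 25.3 ± 2.92 CPM (SD, n = 4 each; -0.28), and the KDEL receptor gene Kdelr3 fell as well (-0.20). Beside Loxl4, the transglutaminase gene Tgm2 rose, from 109 ± 1.66 to 119.9 ± 4.18 CPM (SD, n = 4 each; 0.14). Enzymes and partners of prolyl 3-hydroxylation were not called, with log2 fold changes of 0.00 for P3h1 and Ppib and -0.07 for Crtap. Loxl4 was called in every alternative, and the other 5 were not. Bmp1 was lost in 6 of the 8 fits that left out 1 library, all but those without vehicle replicate 1 and Mic-628 replicate 4, and with the block (edgeR adjusted p = 0.0507). Losses also occurred for Kdelr3 without vehicle replicate 1, vehicle replicate 2 and Mic-628 replicate 1 (0.0675, 0.0752 and 0.0656), for Tgm2 without vehicle replicate 2, vehicle replicate 3 and Mic-628 replicate 3 (0.0689, 0.0674 and 0.0960), and for Pcolce and Creb3l1 without batch 2 (0.0877 and 0.0763). Without batch 3, Creb3l1, Tgm2, Kdelr3 and Bmp1 were lost (0.0933, 0.223, 0.0594 and 0.239), and Kdelr3 and Bmp1 were also lost without batch 1 or 2. DESeq2 did not call Kdelr3 and Bmp1 (adjusted p = 0.0613 and 0.0875), and with the block it also did not call Creb3l1 and Tgm2 (0.0791 and 0.238). The list's count of lower genes was 2 without vehicle replicate 2, Mic-628 replicate 1 or batch 1, 0 without batch 2 and 1 without batch 3.

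Among the substrates of these enzymes, 7 of 16 tested collagen genes fell and 0 rose, with a median log2 fold change of -0.13. By comparison, 2.25% of all tested rows were called lower. Col3a1 (-0.57), Col12a1 (-0.60), Col1a2 (-0.14) and Col6a1 (-0.17) had the smallest p. Lox and Col1a2, its substrate chain, fell by 0.18 and 0.14 on the log2 scale, while the elastin gene Eln, the other classical substrate of Lox, was not expressed highly enough to be tested. Col1a1 was not called (-0.0044), as Serpinh1 and P4ha1 were not. The count of lower collagen genes was 6 with the batch block in edgeR (Col4a1 lost, adjusted p = 0.0965), 4 with the block in DESeq2 (Col4a1, Col4a2 and Col6a2 lost, 0.449, 0.160 and 0.319), and 2 without batch 2 or batch 3. By limma-trend it was 2 on log2(FPKM + 1) and on log2(FPKM + 0.1), and 0 without a filter.

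Among 14 tested genes of other 2-oxoglutarate dioxygenases, the enzyme class to which the prolyl and lysyl hydroxylases belong, 1 fell, Egln1, and 0 rose (median -0.08). The shares of all tested rows called lower and higher were 2.25% and 2.13%. Egln3 (-0.22), P4htm (-0.29) and Jmjd6 (-0.10) had the next smallest p and were not called.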

How the data were processed

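Poly(A) RNA of 8 NIH3T3 libraries, 4 vehicle and 4 Mic-628, was measured. The authors deposited exon read counts per canonical transcript, in steps of 0.5 and so treated as estimated counts, and FPKM values, per the file headers. The submitters' processing notes name mm39 and the tools HOMER 4.11, STAR 2.7.10a and bcl2fastq, without their roles. FPKM recomputed from counts, exon length and the header totals differed from the deposited FPKM by at most 0.0005. All 16 value columns were matched to samples by library name. Strand use in counting is not given in the sources used here.

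Rounded counts entered edgeR 4.0.16 under R 4.3.3 (filterByExpr with minimum count 10, TMM, quasi-likelihood F test, treatment only), adjusted by Benjamini-Hochberg over all 17128 tested rows. Standard errors are |log2 fold change| over the root of F. A prior count of 0.5 enters log2 CPM. The biological coefficient of variation was 3.47%. Family ratios were tested by exact permutation of the 8 labels. The genes and lists were chosen with earlier results of these data known. All 10 genes are named, with every called gene of the collagen biosynthesis list and 2 to 4 members with the smallest p of each other list; further genes named (Pdia3, P3h1, Ppib, Crtap, Loxl1, Loxl3, Col1a1, Eln, Hspa5, Adamts2, Adamts14 and the marker genes) illustrate their lists and were picked after their values were seen. A list of TGF-beta target genes is not reported here.

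The labels give a batch number shared across groups, and the fit with it as a block is an alternative. Deviations from the group means of same-numbered libraries correlated at -0.0923, 0.0744, -0.0213 and -0.0949 over 10292 genes, with -0.117 to 0.141 for other pairs. Libraries of the same number were thus no more alike than others. Other alternatives were DESeq2 1.42.0, other scalings and filters, limma-trend (limma 3.58.1) on log2(FPKM + 1) and log2(FPKM + 0.1), and leaving out libraries or batches. Replicates differed by more than counting noise (chi-square per gene 1.74 to 5.80), so none was merged. On simulated data over 17128 genes the test recovered 16, 36, 46 and 50 of 50 genes changed by 1.2-, 1.5-, 2- and 3-fold, with 2 false calls, so small changes can be missed. Promoters came from RefSeq (GRCm38.p6), and windows of 7 of the 10 genes were searched. Entries on chromosome 18, where Lox lies, were left out, so no Lox window could be searched. Figures used matplotlib 3.10.9.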

Additional observations from a re-analysis of the deposited data

How the results depend on the processing

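Of the 5 genes called, all kept a negative fold change in all 23 alternative settings, and so did P4ha3 and Plod3. The setting with an adjusted p under 0.01 reused the fit reported, so its signs could not turn. Other scalings, filters and tests used the same 8 libraries. The number of genes called was 5 in the fit reported, 2 in DESeq2, 3 in DESeq2 with the replicate block, 4 in edgeR with the replicate block, 1 at an adjusted p under 0.01 (P4ha2), and 0 by limma-trend on log2(FPKM + 1), on log2(FPKM + 0.1) and without a filter. Leaving out a library or a batch gave 1 to 6. The count was 1, P4ha2, without vehicle replicate 2, Mic-628 replicate 3, batch 2 or batch 3. The rows called changed among all tested were 749 in the fit reported, 243 in DESeq2 with the block, 277, 273 and 101 by limma-trend on log2(FPKM + 1), on log2(FPKM + 0.1) and without a filter, 330 at an adjusted p under 0.01, and 292 to 802 when a library or batch was left out (vehicle replicate 2, 426; Mic-628 replicate 3, 438; batch 2, 331; batch 3, 292). The causes were not tested. With the replicate block in edgeR the only call of the 5 that was lost was Plod1.

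The signs of 2 genes near 0 turned. P4ha1 took -0.00901 without vehicle replicate 3, -0.03111 without vehicle replicate 4, -0.00958 without Mic-628 replicate 4 and -0.05288 without batch 4, and ranged up to 0.04249 when other single libraries were left out. Serpinh1 took 0.00415 without vehicle replicate 4, 0.01020 without Mic-628 replicate 1 and 0.00194 without Mic-628 replicate 2, and ranged down to -0.03056 when other single libraries were left out. The P4ha2 to P4ha3 ratio difference turned to -0.06829 without Mic-628 replicate 2, and its range over left-out libraries was -0.06829 to 0.152. No ratio passed the threshold in any alternative, the replicate block among them (P4ha1/P4ha2 difference 0.337), where 4 pairs cannot give a sign-flip p below 0.125. The permutation test could pass after adjustment only if most of the ratios reached its minimum p, so these failures decide little. Lox relative to Loxl2 was not run under any setting, since a Loxl2 library had no count. Depth limits P4ha3 and Loxl2 most.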
